A study of Mus musculus with 2 samples.

Results

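A set of 9 genes of alcohol and retinoid handling was examined in whole adrenal glands of male B6CASTF1/J mice, the first generation of a cross between a laboratory and a wild-derived strain, aged 25 days. They are the alcohol dehydrogenases Adh1, Adh4, Adh5 and Adh7, the aldehyde dehydrogenases Aldh1a1, Aldh1a2 and Aldh1a7, and the retinoid binding proteins Rbp4 and Crabp1. Aldh1a7 is grouped by name and sequence, and whether it acts on retinaldehyde was not tested. These 9 genes were taken by symbol from 55536 annotated genes, of which 22015 are nuclear and protein-coding. They were selected on measured values, because Adh1 stood among the highest nuclear coding genes of both libraries, so the levels below are a description. The study holds 1 group of 2 total RNA libraries, replicate 1 and replicate 2, and the labels name no treatment and no other genotype. Each library was made from 300 ng of RNA with ribosomal RNA reduced and ERCC spike-in transcripts added. The labels conflict on the animals: the tissue labels number a different male for each replicate, while the library labels carry 1 number for both, as does the donor label. Differences between the libraries therefore have 1 library on each side and no p-value, and the spread may be technical.

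Vitamin A circulates as retinol on Rbp4, which the liver releases together with its partner transthyretin. Inside cells, alcohol dehydrogenases and short-chain reductases oxidise retinol to retinaldehyde, and retinaldehyde dehydrogenases oxidise that to retinoic acid, the ligand of the nuclear retinoic acid receptors. Crabp1 binds retinoic acid in the cytosol. Adh1 also oxidises ethanol, and Adh5 is the glutathione-dependent formaldehyde dehydrogenase found in most tissues. The adrenal cortex makes steroids and the medulla catecholamines, and both pathways use oxidoreductases.

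The libraries held 35283841 expected counts in replicate 1 and 35156690 in replicate 2. The adrenal label was checked against cortex markers: all 7 were above 1 TPM (transcript abundance corrected for length and depth) in both libraries, and they summed to 12342 TPM in replicate 1 against 6802 TPM in replicate 2. The 5 chromaffin markers summed to 1596 and 1084 TPM, and the 6 adipocyte markers to 2260 and 1619 TPM. Markers of capsule and stroma summed to 232.2 TPM in replicate 1 against 203.2 TPM in replicate 2, of macrophages to 79.89 and 81.53 TPM, and of mesothelium to 7.01 and 8.40 TPM. The libraries stood apart in transcripts of other tissues. All 8 liver markers were at least 2-fold lower in replicate 1, with sums of 31.03 TPM in replicate 1 against 20589 TPM in replicate 2, and none was at 0. All 6 skeletal muscle markers were at least 2-fold higher in replicate 1, with sums of 1196 TPM in replicate 1 against 1.81 TPM in replicate 2. Of the 4 kidney markers, Umod, Slc12a1 and Slc34a1 had 0 counts in both. The remaining kidney marker, Lrp2, had 60 counts in replicate 1 and 111 in replicate 2, or 0.11 and 0.21 TPM. Each value below is therefore given for replicate 1, which held little liver signal, and for replicate 2, which held much. In bulk tissue, fewer cells of a type and less RNA per cell cannot be told apart.

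Reference coding sequences of the members bear on how far their reads can be told apart. Strain alleles of the cross, untranslated bases and introns were not compared, and read length was not considered. Stretches of 90 coding bases were taken in whole codons where they aligned to Adh1 without gaps. The one where Adh4, Adh5 and Adh7 together were most like Adh1 is printed first. It comes from the GENCODE M21 transcripts, with capitals at bases that differ from Adh1.
Adh1: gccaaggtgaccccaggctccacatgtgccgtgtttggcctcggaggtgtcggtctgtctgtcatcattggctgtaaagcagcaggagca
Adh4: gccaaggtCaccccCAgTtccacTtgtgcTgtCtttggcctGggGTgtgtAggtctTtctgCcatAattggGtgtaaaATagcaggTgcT
Adh5: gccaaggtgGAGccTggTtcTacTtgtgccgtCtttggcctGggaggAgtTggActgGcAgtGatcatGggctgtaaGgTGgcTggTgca
Adh7: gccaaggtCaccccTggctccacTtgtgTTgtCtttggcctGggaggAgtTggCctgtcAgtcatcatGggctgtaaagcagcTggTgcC
Even in this stretch Adh4 differed from Adh1 at 19 bases, Adh5 at 21 and Adh7 at 15. Over whole coding sequences the 6 pairs were 63.4% to 69.1% identical, the longest shared run was 23 bases, and none of the 6 pairs shared a run of 31 bases. The Aldh1a genes are printed in the same way, with capitals at bases that differ from Aldh1a1.
Aldh1a1: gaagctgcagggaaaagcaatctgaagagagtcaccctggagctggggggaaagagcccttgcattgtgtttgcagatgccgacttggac
Aldh1a2: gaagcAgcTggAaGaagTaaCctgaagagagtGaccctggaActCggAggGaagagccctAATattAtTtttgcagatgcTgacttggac
Aldh1a7: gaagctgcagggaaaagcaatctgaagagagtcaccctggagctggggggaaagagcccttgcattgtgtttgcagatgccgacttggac
Aldh1a7 was identical to Aldh1a1 over this stretch, where Aldh1a2 differed at 17 bases. Aldh1a1 and Aldh1a7 had 91.6% identical coding bases, a shared run of 100 bases, and 279 of the 1473 coding 31-base words of Aldh1a1 in common. Against Aldh1a2, Aldh1a1 was 69.8% and Aldh1a7 68.6% identical, with no 31-base word shared.

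The likeness of that pair extended upstream of the genes. The 250 bases before the RefSeq start (build GRCm38.p6) of Aldh1a1, chr19:20601718-20601967 on the plus strand, and of Aldh1a7, chr19:20727557-20727806 on the minus strand, are printed because the pair lies at 1 locus and had different values; capitals mark their longest shared run.
Aldh1a1: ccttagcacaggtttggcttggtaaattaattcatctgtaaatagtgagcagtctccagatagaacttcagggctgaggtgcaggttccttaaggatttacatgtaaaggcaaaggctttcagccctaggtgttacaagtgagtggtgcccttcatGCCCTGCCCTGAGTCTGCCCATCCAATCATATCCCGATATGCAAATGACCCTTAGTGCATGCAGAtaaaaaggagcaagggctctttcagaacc
Aldh1a7: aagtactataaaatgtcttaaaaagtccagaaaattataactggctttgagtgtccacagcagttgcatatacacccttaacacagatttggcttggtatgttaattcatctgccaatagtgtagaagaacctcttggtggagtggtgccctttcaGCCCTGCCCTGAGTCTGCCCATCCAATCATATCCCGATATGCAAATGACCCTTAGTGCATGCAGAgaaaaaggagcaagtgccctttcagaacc
The shared run was 65 bases and ended 29 bases before the RefSeq start of each gene. Across all aligned bases, 173 of 235 were identical, or 73.6%. The motif CAAGGTCA, bound by the cortical factor Nr5a1, was searched on both strands of the 12 RefSeq promoter windows of the 9 genes, each from 250 bases before to 50 after the start. It was in 0 of the 12 windows, and in 1.56% of all 32851 windows. Direct repeats of AGGTCA spaced by 5 or by 2 bases, and of AGTTCA spaced by 5, were likewise in 0 of the 12 windows; each was in at most 0.0244% of all windows. These counts say only that the letters are not in these windows.

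Adh1 (ENSMUSG00000074207.10, mm10 chromosome 3, 138260991 to 138290698, plus strand), the retinol and ethanol oxidising class I enzyme, was at 1766 TPM in replicate 1 against 1119 TPM in replicate 2. Its mean was 1443 ± 457 TPM (SD, n = 2), from 81689 and 51319 expected counts. It ranked 8 among nuclear coding genes in replicate 1 and 18 in replicate 2, which is what the genes were chosen by. Ordered by mean TPM it was at rank 11, between Apoe, Cyp11a1, Cyp21a1, Hbb-bs and Trf above and Hba-a2, Mup22, Apoa2, Atp5b and Cyp11b1 below. Cyp11a1, Cyp21a1 and Cyp11b1 are steroidogenic enzymes of the cortex, and Hbb-bs and Hba-a2 are globins. The ranks around Adh1 also held Trf, at 28.14 TPM in replicate 1 against 2877 TPM in replicate 2, and Mup22, at 1.73 and 2432 TPM, which are secreted by the liver. The log2 ratio of Adh1, replicate 1 over replicate 2 after TMM scaling, was 0.43, with a 95% counting interval of 0.42 to 0.45 (exact binomial; all such intervals cover counting error only). The cortex markers, for comparison, had ratios of 0.40 to 0.80 with a median of 0.64. The ratio of Adh1 also lay within the ranges of chromaffin markers, 0.24 to 0.79, of adipocyte markers, -0.04 to 0.61, and of capsule and stroma markers, -0.34 to 0.49. Mesothelium and macrophage markers lay below it. The cell type that holds the Adh1 transcript was not tested.

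**Figure D1:**
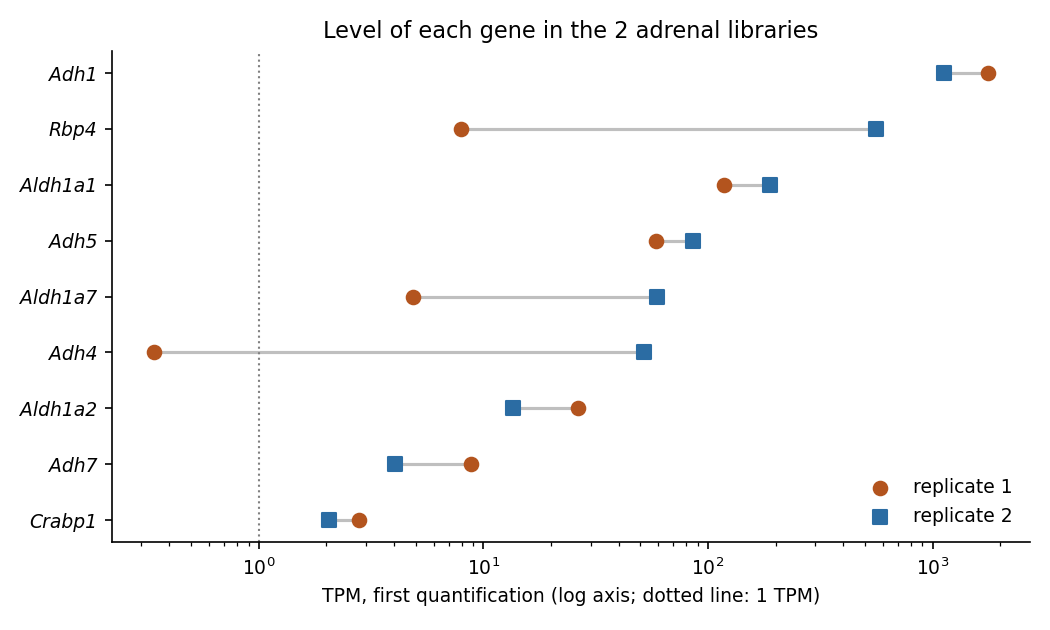
Level of each gene in TPM (log axis) in replicate 1 (circles) and replicate 2 (squares), ordered by mean, with a grey line joining the libraries. Adh1 is the highest in both at 1766 and 1119 TPM, and the lines of Rbp4, Aldh1a7 and Adh4 are the longest, with the lower end in replicate 1.

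Adh5 (ENSMUSG00000028138.8, chromosome 3, 138443093 to 138455499, plus strand) was the next most abundant alcohol dehydrogenase, at 58.44 TPM in replicate 1 against 85.93 TPM in replicate 2, or 72.2 ± 19.4 TPM (SD, n = 2). Its log2 ratio was -0.81 (interval -0.88 to -0.74). Esd, the esterase that acts after Adh5 in formaldehyde removal, was at 90.37 TPM in replicate 1 against 87.28 TPM in replicate 2. Adh7 (ENSMUSG00000055301.8, chromosome 3, 138217760 to 138233382, plus strand), a class IV enzyme best known from stomach epithelium, was at 8.84 TPM in replicate 1 against 4.05 TPM in replicate 2, from 677 and 365 counts. The log2 ratio of Adh7 was 0.65 (0.47 to 0.84). The annotated gene 0610031O16Rik lies antisense over Adh7 and had 4 counts in replicate 1 and 241 in replicate 2, so its values run opposite to those of Adh7. Whether counting used the strand is not given in the sources used here, and reads of the pair may not be fully separated.

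Adh4 (ENSMUSG00000037797.14, chromosome 3, 138415466 to 138430892, plus strand), a class II enzyme of liver, had 14 counts in replicate 1 and 2008 in replicate 2. These gave 0.34 TPM in replicate 1, the lowest level of the 9 genes, and 51.85 TPM in replicate 2. It was 169-fold higher in replicate 2 (95% counting interval 100.6 to 310.1), a log2 ratio of -7.40. In replicate 1 it was the only one of the 9 genes under 1 TPM. Its mean, 26.1 ± 36.4 TPM (SD, n = 2), describes neither library.

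The 4 alcohol dehydrogenases sit on the plus strand of 1 cluster of 237.7 kb from the start of Adh7 to the end of Adh5, with 10 annotated genes of which 6 code for protein. Adh7, Adh1 and Adh5 reached 1 TPM in both libraries. Adh6a, which lies next downstream of Adh1 on the plus strand, had 0 counts in both in the first quantification, and Adh6b had 6 counts in replicate 1 and 8 in replicate 2. The pseudogene Adh6-ps1 was at 0.05 TPM in replicate 1 against 9.06 TPM in replicate 2, a pattern like that of its neighbour Adh4. Adjacent genes on the same strand of 1 cluster, Adh1 and Adh6a, thus held the highest level and 0 counts in the first quantification; the second gave Adh6a 0 TPM in replicate 1 and 0.0385 TPM in replicate 2. Adh1 made up 96.3% of the summed TPM of the 4 enzymes in replicate 1 and 88.8% in replicate 2, and Adh5 3.19% and 6.81%.

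**Figure D2:**
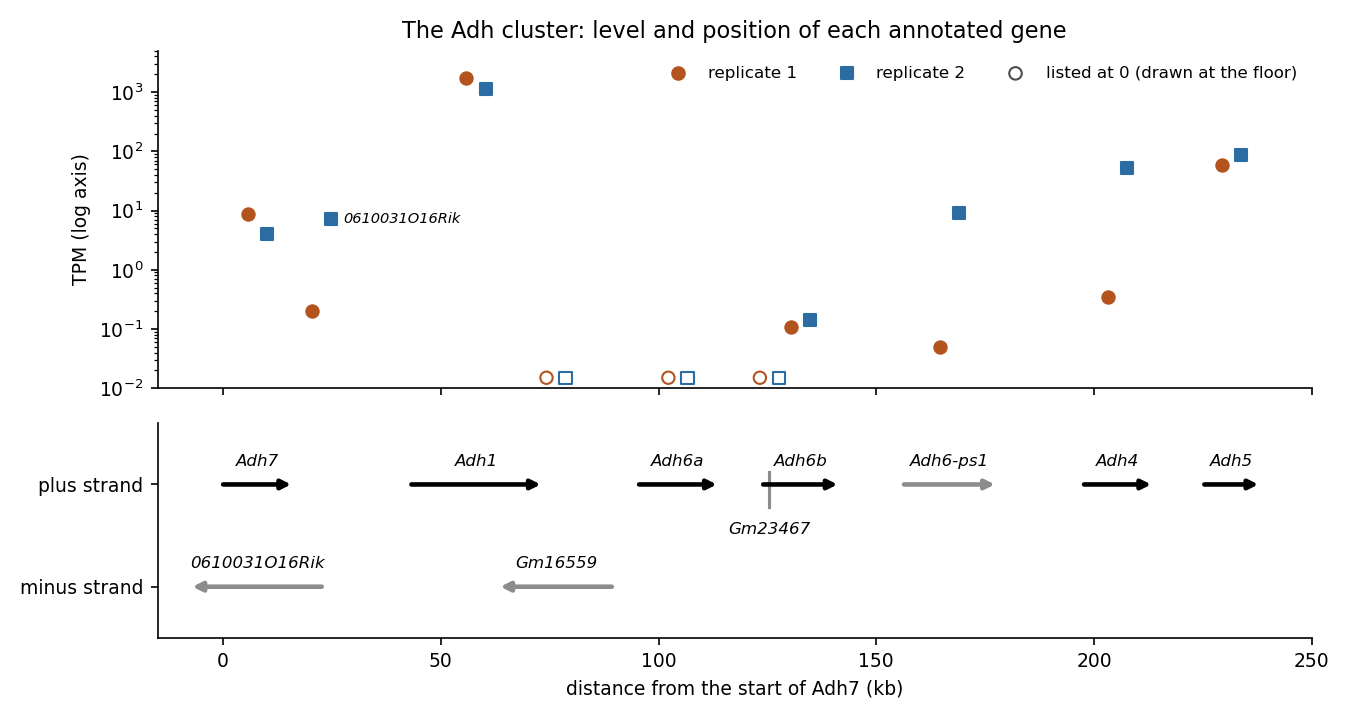
Level (upper panel, TPM on a log axis, replicate 1 as circles left of replicate 2 as squares) and position (lower panel, kb from the start of Adh7, arrows along the strand, grey for genes that do not code for protein) of the annotated genes of the Adh cluster. Adh1 stands highest, at 1766 and 1119 TPM, while Adh6a, next downstream on the same strand, is listed at 0. Points of 0610031O16Rik are drawn at its right end to separate them from Adh7.

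Aldh1a1 (ENSMUSG00000053279.8, chromosome 19, 20492715 to 20643465, plus strand) was the main retinaldehyde dehydrogenase. It was at 117.9 TPM in replicate 1 against 188.0 TPM in replicate 2, or 153 ± 49.6 TPM (SD, n = 2), with a log2 ratio of -0.90 (-0.95 to -0.86). Aldh1a2 (ENSMUSG00000013584.5, chromosome 9, 71215789 to 71296243, plus strand), the enzyme that makes most retinoic acid in the mouse embryo, was at 26.38 TPM in replicate 1 against 13.53 TPM in replicate 2, with a log2 ratio of 0.73 (0.62 to 0.85). Aldh1a1 and Aldh1a2 thus differed between the libraries in opposite directions. Aldh1a3, the remaining Aldh1a gene examined, was at 3.96 TPM in replicate 1 against 2.91 TPM in replicate 2.

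Aldh1a7 (ENSMUSG00000024747.3, chromosome 19, 20692953 to 20727562, minus strand) is the near copy of Aldh1a1 shown above. It was at 4.85 TPM in replicate 1 against 59.59 TPM in replicate 2, which is 14.4-fold higher in replicate 2 (12.9 to 16.2). The genes face each other tail to tail, with 49.49 kb between their ends. Of the counts on the pair, Aldh1a7 held 3.99% in replicate 1 and 24.2% in replicate 2, with exact 95% intervals of 3.58% to 4.44% and 23.6% to 24.9% (Clopper-Pearson). The second quantification gave shares of 3.80% and 23.1%. The deposited posterior standard deviation of the Aldh1a7 count was 0.34 reads in replicate 1 and 0.92 reads in replicate 2. Of the summed TPM of the 3 enzymes, Aldh1a1 made up 79.1% in replicate 1 and 72.0% in replicate 2, Aldh1a2 17.7% and 5.18%, and Aldh1a7 3.25% and 22.8%.

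Rbp4 (ENSMUSG00000024990.13, chromosome 19, 38116629 to 38125281, minus strand), the plasma carrier of retinol, had 226 counts in replicate 1 and 15907 in replicate 2. Its level was 7.95 TPM in replicate 1, at rank 7242 of the nuclear coding genes, and 560.2 TPM in replicate 2, at rank 55. It was 83.0-fold higher in replicate 2 (72.8 to 95.1). Its partner Ttr, transthyretin, was at 1.08 TPM in replicate 1 against 1225 TPM in replicate 2. Crabp1 (ENSMUSG00000032291.8, chromosome 9, 54764748 to 54773110, plus strand) was at 2.79 TPM in replicate 1 against 2.05 TPM in replicate 2, from 67 and 49 counts. The log2 ratio of Crabp1 was 0.21 after TMM scaling, with an interval of -0.34 to 0.78 that includes 0. On that scale no difference between the libraries was detectable at this depth. With spike-in totals the ratio of Crabp1 was 0.57, and no interval was computed for it there.

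Between the libraries, a gene was called where it differed at least 2-fold after TMM scaling and had a mean of at least 1 TPM. None of the 9 genes was called higher in replicate 1, where 1.80% of 14204 tested genes were. With spike-in totals as the scale Adh7 and Aldh1a2 were called higher, 2 of 9, and by TPM as deposited Adh7, 1 of 9. Of the 14204 tested genes, 541 were called higher with spike-in totals and 418 by TPM. Adh4, Aldh1a7 and Rbp4 were called lower in replicate 1, 3 of 9, where 8.38% of tested genes were. The 3 called genes had log2 ratios of -7.40, -3.85 and -6.38, and the 8 liver markers ranged from -9.96 to -8.04. Adh5 and Aldh1a1 were also lower in replicate 1, by less than 2-fold. The part of liver transcripts in these differences was not tested. The summed TPM of the 9 genes was 1993 in replicate 1 and 2085 in replicate 2, but its makeup differed: Adh1 was 88.6% of it in replicate 1 and 53.7% in replicate 2.

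**Figure D3:**
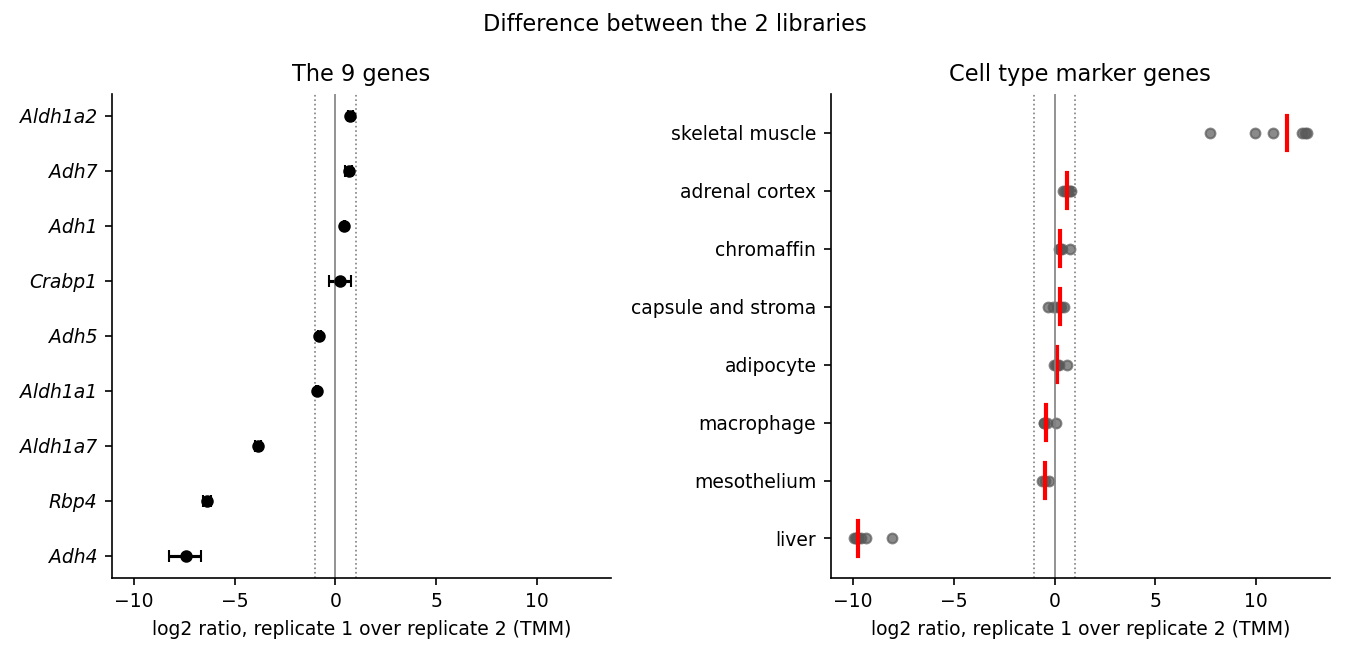
Log2 ratio of replicate 1 over replicate 2 after TMM scaling for the 9 genes (left panel, bars are 95% counting intervals) and for marker genes of 8 cell types with a mean of at least 1 TPM (right panel, 1 point a gene, red line the median), with dotted lines at 2-fold. Adh4 at -7.40, Rbp4 at -6.38 and Aldh1a7 at -3.85 lie on the side of the liver markers, and the other 6 genes lie within 2-fold on this scale.

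Ratios within each library set the 9 genes beside a cortex, an adipocyte and a liver transcript that were picked after their values were seen. Per 100 TPM of Star, the cholesterol transport protein of steroid-making cells, Adh1 was at 54.1 TPM in replicate 1 against 60.8 TPM in replicate 2. Aldh1a2 was at 0.808 and 0.735, Adh7 at 0.271 and 0.220, and Crabp1 at 0.0855 and 0.111 TPM per 100 TPM of Star. Relative to Star, these 4 genes differed by at most 1.30-fold between the libraries. Aldh1a1, at 3.61 in replicate 1 and 10.2 in replicate 2, and Adh5, at 1.79 and 4.67, were lower relative to Star in replicate 1. Relative to Adipoq, the adipocyte hormone adiponectin, Adh1 was 1.25-fold higher in replicate 1, Adh7 1.72-fold, Aldh1a2 1.54-fold and Crabp1 1.07-fold, while Aldh1a1 was 2.02-fold and Adh5 1.86-fold higher in replicate 2. Per 100 TPM of Alb, serum albumin, Adh4 was at 2.09 TPM in replicate 1 against 0.434 TPM in replicate 2, a difference of 4.81-fold. Rbp4 was at 48.7 and 4.69 TPM per 100 TPM of Alb, a 10.4-fold difference, and Aldh1a7 at 29.7 and 0.499, a 59.6-fold difference. Relative to Alb, then, all 3 were higher in replicate 1, although their own levels were lower there. The value of Adh4 rested on 14 counts in replicate 1. Alb itself had a log2 ratio of -9.7, within a range of -9.96 to -8.04 over the 8 liver markers. Some liver markers were thus also higher relative to Alb in replicate 1.

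**Figure D4:**
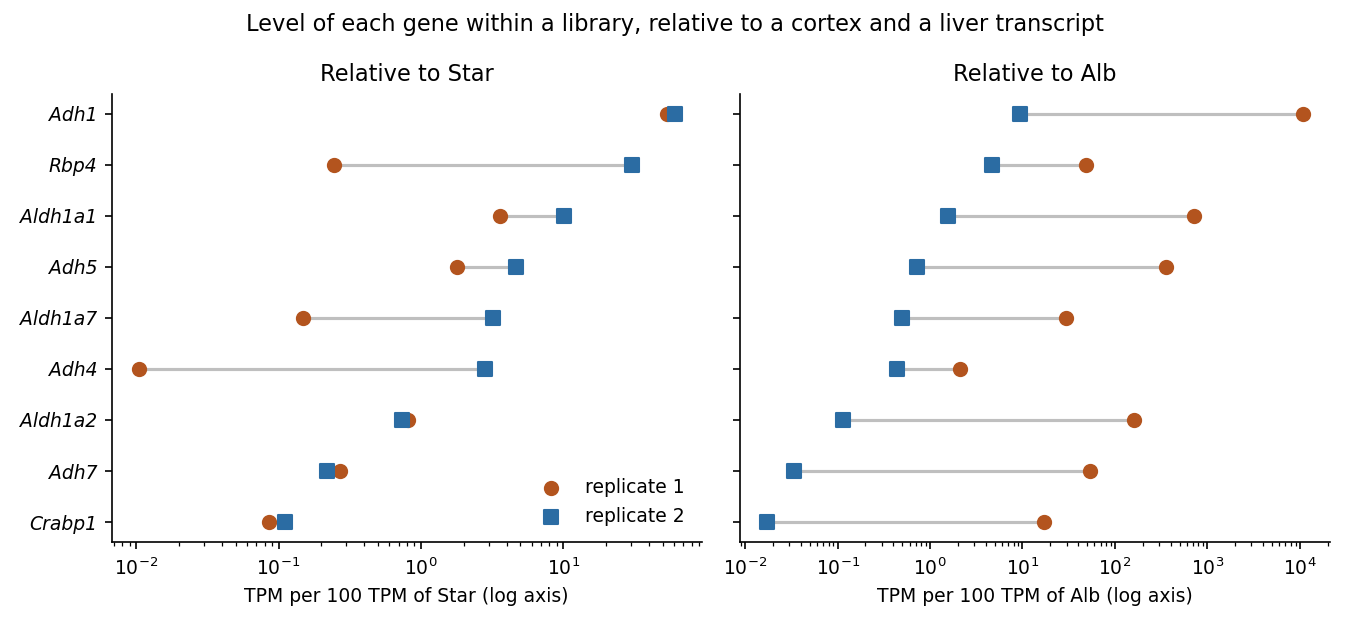
Level of each gene per 100 TPM of Star (left panel) and per 100 TPM of Alb (right panel), on log axes, in replicate 1 (circles) and replicate 2 (squares). Adh1, Aldh1a2, Adh7 and Crabp1 lie close together between libraries relative to Star, and relative to Alb the smallest gap is that of Adh4, 2.09 against 0.434.

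In order of mean TPM the genes were Adh1, Rbp4, Aldh1a1, Adh5, Aldh1a7, Adh4, Aldh1a2, Adh7 and Crabp1. The ranges over the libraries did not overlap between Adh1 and Rbp4, Aldh1a1 and Adh5, Aldh1a2 and Adh7, or Adh7 and Crabp1. In the second quantification the ranges of Aldh1a1 and Adh5 overlapped, with Adh5 higher by mean, and so did those of Aldh1a2 and Adh7. The other neighbours, each of which included Rbp4, Aldh1a7 or Adh4, overlapped in the first. In replicate 1 the order was Adh1, Aldh1a1, Adh5, Aldh1a2, Adh7, Rbp4, Aldh1a7, Crabp1 and Adh4. The 6 genes other than Rbp4, Aldh1a7 and Adh4 held the same relative order in both libraries, except that the second quantification put Adh5 above Aldh1a1 in replicate 1. Of the 9 genes, 8 reached 1 TPM in both libraries.

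For the 6 genes with more than 1 annotated transcript, TPM was divided differently among transcripts by the first and the second quantification. The first started from a transcriptome alignment, and the second used the reads and an index. For Adh1 the coding transcript Adh1-201 led in both: it held 91.3% of the gene's TPM in replicate 1 and 90.6% in replicate 2 in the first, and 85.0% and 84.6% in the second. Adh1-204, which begins upstream at the start of the annotated gene, held 0.06% and 0.03% in the first and 13.6% and 13.9% in the second. For Adh5 the coding Adh5-201 held 85.8% in replicate 1 and 90.4% in replicate 2 in the first, but 25.1% and 26.0% in the second, where Adh5-207, annotated for nonsense-mediated decay, led with 29.4% and 29.0%. The TPM of Adh5 differed too: its second TPM was 3.36 times its first in replicate 1 and 3.33 times in replicate 2, against medians of 1.73 and 1.66 over 12661 coding genes. In replicate 1, 1.17% of those genes had a higher ratio than Adh5, and in replicate 2, 0.798% had. The gene counts of Adh5 differed less than its TPM. They were 2880 in the first and 3287 in the second in replicate 1, and 4275 and 4908 in replicate 2.

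For Aldh1a1, the coding Aldh1a1-206, which starts far upstream, held 2.16% in replicate 1 and 0.32% in replicate 2 in the first quantification, but 44.7% and 46.1% in the second. For Rbp4, Rbp4-202 led in the first with 91.6% in replicate 1 and 97.7% in replicate 2, while Rbp4-201 led in the second with 75.3% and 50.2%. Rbp4-202 held 24.7% and 49.8% in the second, so in replicate 2 these transcripts were nearly even there. The coding Adh7-201 held 62.9% in replicate 1 and 77.1% in replicate 2 in the first, against 36.0% and 37.3% in the second, where Adh7-203, a retained intron transcript, held 43.5% in replicate 1 and 30.1% in replicate 2. Aldh1a2, Aldh1a7 and Crabp1 have 1 annotated transcript each. The shares of Adh1-201 and Adh5-201 differed less between the libraries than between the quantifications. By share of TPM, the leading transcript of Adh5 and Rbp4, and of Adh7 in replicate 1, depended on the quantification. By counts, Adh5-201 and Adh7-201 led in both. In the second, Adh5-201 had 1574 counts in replicate 1 and 2430 in replicate 2, against 907 and 1334 for Adh5-207. Adh7-201 had 714.3 and 393 there, against 43.76 and 15.91 for Adh7-203. The leader by counts changed for Rbp4, and for Aldh1a1 in replicate 2. Which quantification is closer to the RNA was not tested.

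**Figure D5:**
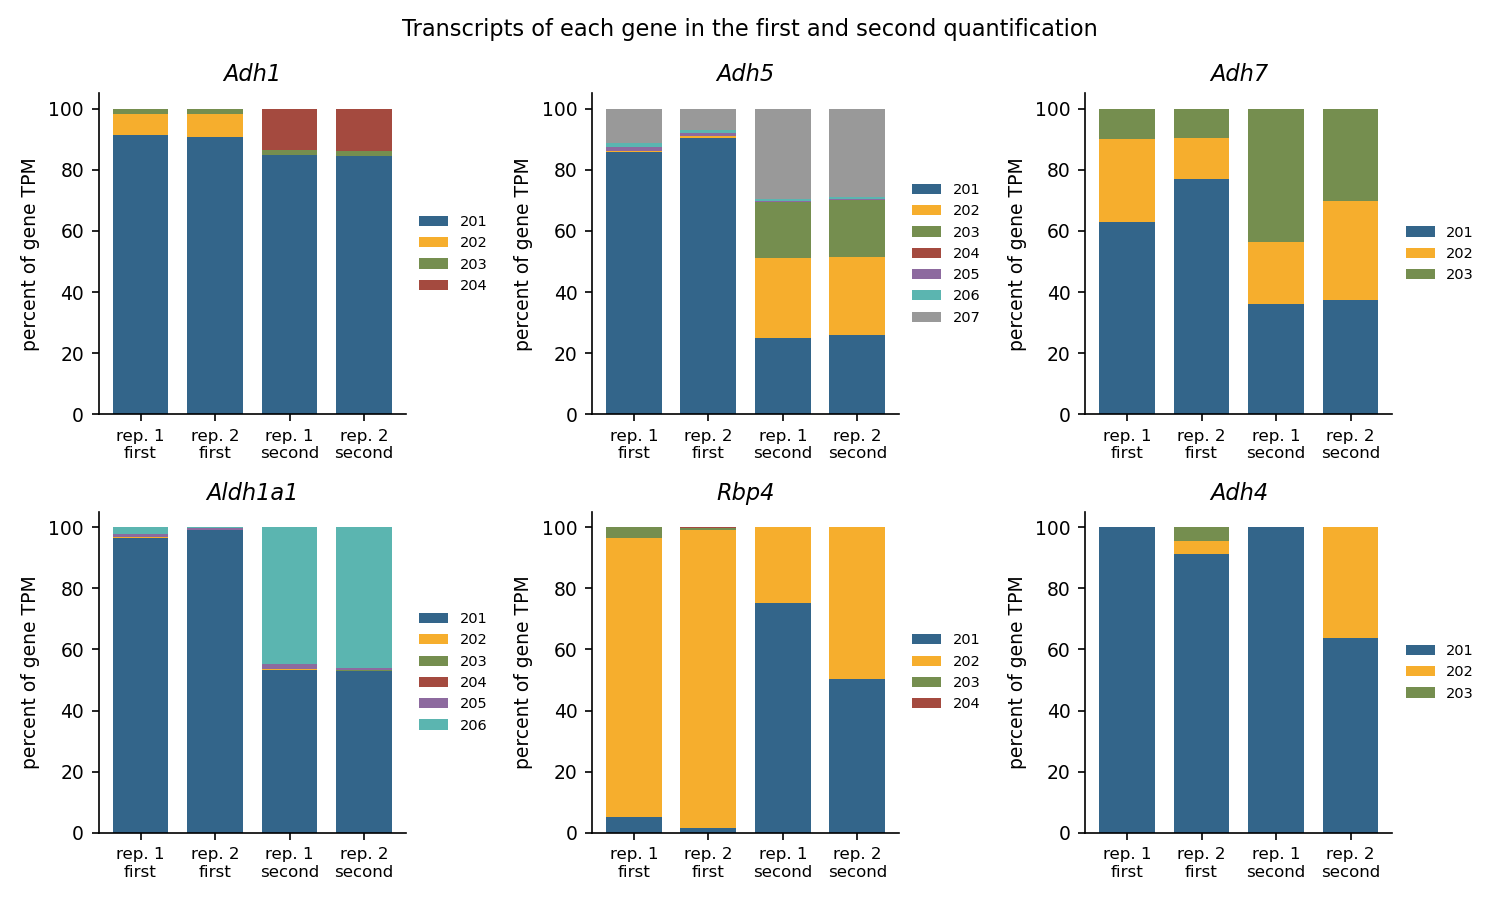
Percent of each gene's TPM on its annotated transcripts (colours, numbered as annotated) in replicate 1 and replicate 2, by the first and the second quantification. Adh1-201 leads in all 4 bars of Adh1, between 84.6% and 91.3%, and Adh5-201 is 85.8% or more in the first quantification and 26.0% or less in the second.

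The rest of the pathway was taken from lists of 67 other genes, of which 46 were tested. None was called higher in replicate 1, against 1.80% of all tested genes, and 19 were called lower, against 8.38%; their median log2 ratio was -0.59, against 0.02 over all tested genes. With total counts as the scale 1 was called higher, Scarb1, and 13 lower, and with spike-in totals 2 were called higher, Scarb1 and Aldh3b1, and 13 lower. Of all 14204 tested genes, 382 were called higher and 1036 lower with total counts, and 541 and 972 with spike-in totals. The ratios of 5 pathway genes, Rarg, Rarb, Rxrg, Aldh2 and Esd, changed sign with the scale. In retinol supply and uptake, 4 of 8 tested genes were called lower, against 3 of 8 with total counts or spike-in totals. Ttr led that list, followed by Scarb1, a lipoprotein receptor, at 736.4 TPM in replicate 1 against 340.9 TPM in replicate 2. Lpl, lipoprotein lipase, was at 205.3 and 126.5 TPM, and Dgat1, an acyltransferase that can esterify retinol, at 34.45 and 24.51 TPM. Of these, Ttr was lower in replicate 1, as Rbp4 was, and the other 3 were higher there. After TMM scaling Scarb1 had a log2 ratio of 0.88, which is under 2-fold, against 1.11 on the total count scale and 1.24 on the spike-in scale.

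Of the short-chain reductases, which convert retinol and retinaldehyde, 5 of 10 tested genes were called lower in replicate 1, against 8.38% of all tested genes. With total counts or spike-in totals as the scale 3 of 10 were, and Dhrs3 was among those that lost the call. Rdh7 was at 0.15 TPM in replicate 1 against 134.8 TPM in replicate 2. Dhrs3, which reduces retinaldehyde back to retinol, was at 31.51 and 62.52 TPM, Dhrs4 at 37.16 and 54.06 TPM, and Rdh14 at 12.68 and 10.03 TPM. In replicate 1, with little liver signal, the most abundant of these reductases were therefore Dhrs4 and Dhrs3, well under Adh1. Aldh8a1, which can oxidise retinaldehyde, was at 0.06 TPM in replicate 1 against 37.09 TPM in replicate 2. Among other aldehyde dehydrogenases, 5 of 13 tested genes were called lower, against 3 of 13 with total counts or spike-in totals. Aldh2, the mitochondrial enzyme that oxidises acetaldehyde made from ethanol, led this list with 484.4 TPM in replicate 1 against 513.9 TPM in replicate 2. Aldh6a1 was at 67.78 and 79.65 TPM, Aldh1l1 at 40.06 and 152.7 TPM, and Aldh7a1 at 29.53 and 91.40 TPM. Of the other alcohol dehydrogenases, Adhfe1 led with 19.12 TPM in replicate 1 against 24.34 TPM in replicate 2.

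Downstream of retinoic acid, all 6 receptors were above 1 TPM in both libraries, and 1 of 6 was called lower in replicate 1, against 8.38% of all tested genes. The called receptor was Rxra, at 15.24 TPM in replicate 1 against 43.97 TPM in replicate 2. Rxrb was at 22.46 and 19.52 TPM, Rarg at 8.72 and 7.55 TPM, and Rara at 7.30 and 8.09 TPM. Of the binding and breakdown genes, Fabp5, a fatty acid binding protein that can carry retinoic acid, was at 18.65 TPM in replicate 1 against 23.58 TPM in replicate 2. Cyp26b1, which degrades retinoic acid, was at 5.52 and 10.38 TPM, and Cyp26a1, its relative, at 0.02 and 0.94 TPM, while Crabp2 was at 0.04 and 0.14 TPM. Of the 8 listed retinoic acid targets, 2 of 4 tested were called lower in replicate 1, Dhrs3 and Rarres2, and with total counts or spike-in totals Rarres2 alone. Rarres2 was at 20.57 TPM in replicate 1 against 182.7 TPM in replicate 2. Tgm2 was at 24.18 and 26.25 TPM and Rarb at 6.01 and 6.19 TPM, while Stra8 had 0 counts in both. Receptors, Fabp5 and Cyp26b1 were thus present in both libraries beside the dehydrogenases. Such presence is common: of 22015 nuclear coding genes, 12661 had a mean of at least 1 TPM and were above 0 in both libraries. Presence alone therefore does not set the receptors or the 9 genes apart.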

How the data were processed

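Total RNA of adrenal tissue was measured in 2 libraries of 1 group. The samples' deposited text files give mm10 and annotation M21 for every table. Neither the aligner nor a quantifier is named: not given in the sources used here. The authors deposited expected counts, TPM and the percent of gene TPM on each transcript (first quantification), and estimated counts and TPM per transcript (second), per the file headers, and these were summed per gene. The deposited credibility bounds of TPM, a score made by the authors, were not used in any result, and the posterior standard deviations of counts were. Counts were rounded and scaled by TMM (edgeR 4.0.16, factors 1.08 and 0.923); entries naming no gene held 0.839% of counts in replicate 1 and 0.915% in replicate 2 and stayed out. A ratio has an exact binomial interval at 95%. The scaling was tried on simulated counts in which equal numbers of genes were raised and lowered. In these libraries 256 genes were called higher and 1191 lower in replicate 1, so that trial does not show how the scaling performs here. The members and lists were chosen with earlier results of these data known. Named genes are every member, the 4 highest by mean TPM of each pathway list, and the 5 genes above and below Adh1. Alb, Star, Adipoq, Adh6a, Adh6b, Aldh3b1, Rxrg, Stra8, 0610031O16Rik, Umod, Slc12a1, Slc34a1 and Lrp2 were added after their values were seen. Cell type markers are given as sums. Alternatives used DESeq2 1.42.0 size factors, total counts, spike-ins, TPM, other thresholds and the second quantification. Sequences are from GENCODE M21 transcripts and from RefSeq promoter windows, matched by symbol for all 9 genes.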

Additional observations from a re-analysis of the deposited data

How the results depend on the processing

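No log2 ratio of the 9 genes changed sign under DESeq2 size factors, total counts, spike-in totals, TPM or the second quantification. The scale moved the median log2 ratio of all tested genes from 0.02 (TMM) to 0.25 with total counts, 0.24 with TPM and 0.37 with spike-in totals, and the share of called genes that were higher in replicate 1 from 17.7% to 26.9%, 28.2% and 35.8%. Members at least 2-fold higher in replicate 1 numbered 0, against 2 with spike-in totals (Adh7 and Aldh1a2), 1 with TPM (Adh7) and 2 at a threshold of 1.5-fold. Members at least 2-fold lower numbered 3, against 5 at 1.5-fold. The share of all tested genes at 1.5-fold was not computed, so the member counts at that threshold have no background beside them. Members detected in both libraries numbered 8, against 5 at a threshold of 5 TPM, and 8 without replicate 2 and 9 without replicate 1. The mean of Adh1 was 1443 TPM, against 2639 TPM in the second quantification and 4273 TPM relative to nuclear coding genes, and 1119 to 1766 TPM with either replicate left out. Of 140 alternatives over all results, 88 left the value within its threshold or spread and 52 moved it. With 2 libraries, leaving out either one always keeps a mean TPM within its SD. Those alternatives could not move a mean and are among the 88, so that number overstates how stable the means are. No paired analysis was possible because there is 1 group. At 67 and 49 counts, depth limits Crabp1, and at 14 counts Adh4 in replicate 1.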
